A study of Mus musculus with 6 samples.

Results

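Chemokines and their receptors were examined in bulk RNA-seq libraries of mouse dorsal root ganglion (DRG) and neurofibroma tissue. The genes were chosen by symbol alone, as every symbol that begins with Ccl, Cxcl, Ccr, Cxcr or Ackr and a number, with Cx3cl1, Cx3cr1, Xcl1, Xcr1 and Ccrl2 added. This rule found 63 of the 24062 genes counted, 39 ligands and 24 receptors. Of these, 42 had enough reads to be tested, 25 ligands and 17 receptors.

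The comparison asked what changes in the tumors when Runx1 and Runx3 are also lost from the glial cells in which Nf1 is deleted. One group held 3 libraries from Nf1fl/fl;DhhCre mice. The other held 3 libraries from mice of the genotype Rx1fl/fl;Rx3fl/fl;Nf1fl/fl;DhhCre, labelled double knockout and abbreviated dKO. Both groups thus carried floxed Nf1 and the DhhCre transgene, and the strain background was given as C57BL/6-I129 for both. By the paper's design, Cre under the Dhh promoter acts in Schwann cells and their precursors. Whether leukocytes of the same tissue kept their floxed genes was not measured in these bulk libraries. The genotype field of the dKO samples leaves out Nf1fl/fl, which the protocol names, and the tissue field differs, with DRG given for Nf1fl/fl;DhhCre and neurofibroma for dKO. The age of the mice was not given for these libraries, and each title carries its own number but no label says that these are separate mice, so p-values measure the spread between these libraries. Library totals ranged from 12439296 to 16682194 counts.

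Chemokines are small secreted proteins that direct the migration of cells, mainly leukocytes. They are grouped by the spacing of their first cysteines into CC, CXC, CX3C and XC families and signal through receptors coupled to G proteins, whereas atypical receptors bind and remove chemokines without such signaling. In nerve and nerve tumors, CCR2 and its ligands are known for the entry of monocytes, CX3CR1 for tissue macrophages, and CXCL12 for stromal and vascular cells.

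Levels are given as CPM, the gene's share of the library's counts after TMM scaling, always in the order of replicates 1, 2 and 3. Fold changes are log2 values of dKO against Nf1fl/fl;DhhCre from limma-voom, and a gene was called lower or higher when its Benjamini-Hochberg adjusted p was under 0.05 and its change over 2-fold. In Nf1fl/fl;DhhCre, Runx1 was at 131, 141 and 172 CPM, and in dKO at 84.0, 78.9 and 185 CPM. Runx1 was therefore not reduced in dKO replicate 3, and the label of that library could not be checked by this gene. Runx3 was at 19.9, 15.1 and 29.9 CPM against 13.5, 10.3 and 12.1 CPM, lower in each library labelled dKO. Neither passed the test (log2 fold change -0.44 with limma-voom adjusted p = 0.370 for Runx1, and -0.79 with adjusted p = 0.104 for Runx3). Nf1fl/fl;DhhCre replicate 2 and dKO replicate 2 stood apart by their summed level of 6 skeletal muscle markers, 1593 and 11061 CPM, against 4.43 to 61.7 CPM in the other libraries. By the labels, 1 dKO library came from a sequencing run of its own, which is replicate 3 by the sample titles and replicate 2 by the deposited data.

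Most chemokine and receptor genes that changed were lower in the libraries labelled dKO. Of the 42 tested, 11 were called lower by limma-voom with Benjamini-Hochberg adjustment (26.2%, against 5.36% of all 15652 genes tested) and 1 was called higher (2.38%, against 8.03% of all genes). The genes called lower included the ligands Ccl6, Ccl9, Ccl11, Cxcl5, Cxcl14 and Cxcl16 and the receptors Ccr1, Ccr2, Ccr3 and Cx3cr1, and the gene called higher was the atypical receptor Ackr1. In 20 of the 42 (47.6%), all libraries labelled dKO lay below all Nf1fl/fl;DhhCre libraries, as they did in 20.5% of all genes, and in 4 (9.52%) they lay above, as in 21.8% of all genes. The median log2 fold change was -1.03 over the 42, beside 0.02 over all genes tested, with 31 of the 42 negative, as were 7658 of the 15652 genes tested. The filter on low counts was passed in every library by 30 of the 42, and by Ccl8 and Ccr3 in the Nf1fl/fl;DhhCre libraries only, so that these genes had to differ in order to be tested.

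**Figure D1:**
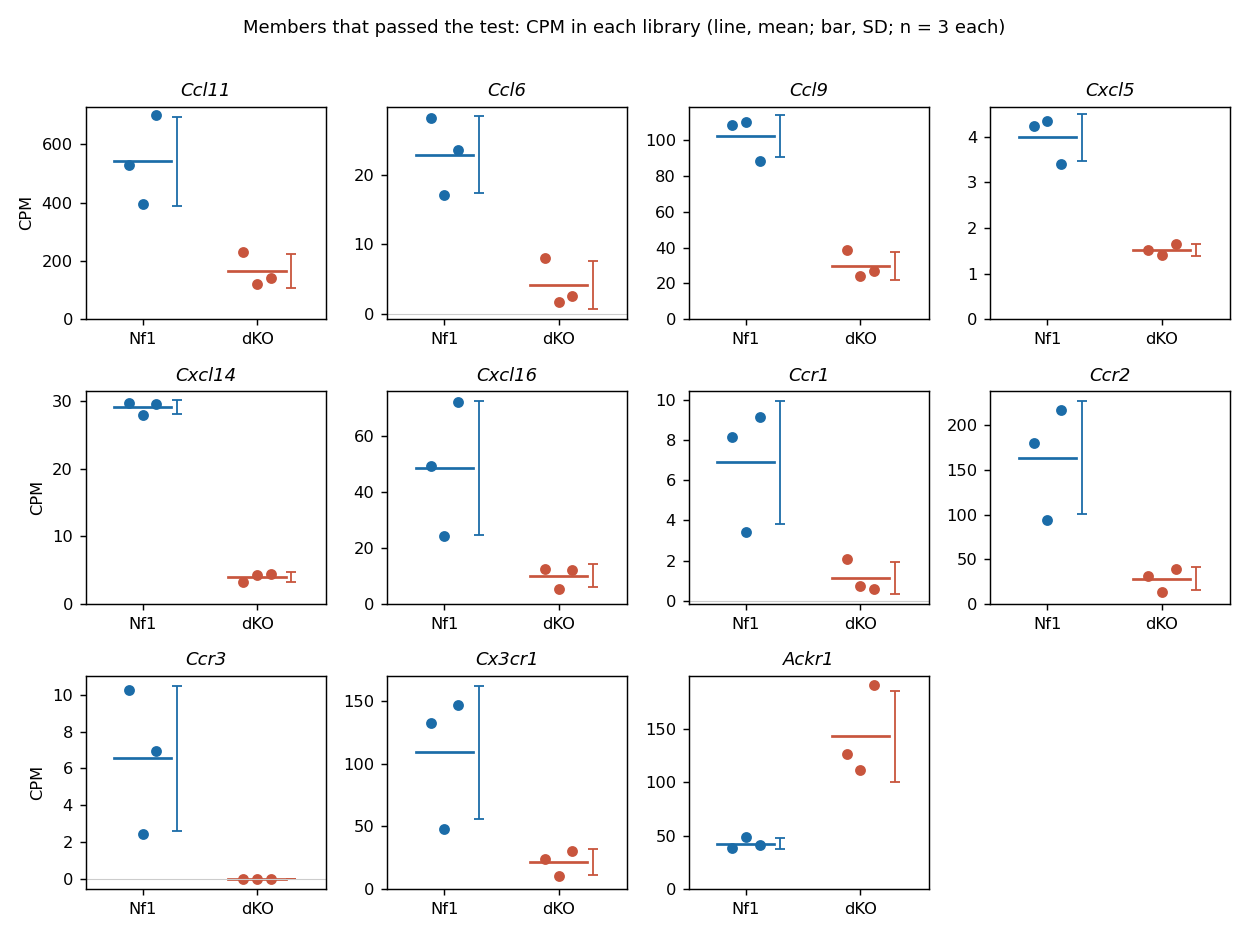
CPM of 11 called genes in each library (points; line, mean; bar, SD; n = 3 for each genotype; linear axes from 0, with blue for Nf1fl/fl;DhhCre and red for dKO). In each of the 10 genes called lower that are shown the dKO points lie below all Nf1fl/fl;DhhCre points, with Ccr3 at 0, and in Ackr1 they lie above.

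The number called lower depended on which libraries were used. It was 6 when Nf1fl/fl;DhhCre replicate 3 or any 1 of the dKO replicates was left out, with Cxcl5, Cxcl16, Ccr1, Ccr3 and Cx3cr1 no longer called, and in these fits the share of all genes called lower was 3.12% without Nf1fl/fl;DhhCre replicate 3 and 3.59%, 2.04% and 2.96% without dKO replicates 1, 2 and 3. It was 16 without Nf1fl/fl;DhhCre replicate 2, beside 6.45% of all genes. It was 2 without Nf1fl/fl;DhhCre replicate 1, when only Ccl9 and Cxcl14 remained, beside 1.13% of all genes. In that fit 15 of the family were more than 2-fold lower at a limma-voom unadjusted p under 0.05. The share of all genes at that looser cutoff was not taken. Over these 6 fits Ccl9, Cxcl14 and Ackr1 kept their calls, and over the 7 other settings with all libraries all 12 did. With all libraries edgeR called 13 of the family and 975 of all genes lower, and DESeq2 called 15 and 1236, against 11 and 839 by limma-voom.

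The summed RNA of the family was smaller in the dKO libraries. Its 63 genes took 0.113% to 0.196% of all counts in the Nf1fl/fl;DhhCre libraries and 0.0548% to 0.0805% in the dKO libraries, which do not overlap. Ligands summed to 697 to 1167 CPM against 305 to 442 CPM. Receptors summed to 421 to 731 CPM against 272 to 402 CPM. A single ligand, Ccl11, made 56.8% to 60.0% of the ligand CPM in Nf1fl/fl;DhhCre and 39.8% to 52.0% in dKO. These are bulk samples, in which fewer cells of a type and less RNA per cell cannot be told apart.

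Divided by exon length, so that genes can be compared with each other, Ccl11 was the most abundant of the genes at 501 CPM per kb in Nf1fl/fl;DhhCre and 152 CPM per kb in dKO. Ccl12 (33.7 CPM per kb), Ccl9 (33.6), Ackr1 (30.2) and Ccl2 (29.0) followed in Nf1fl/fl;DhhCre, and among the receptors that signal Ccr2 and Cx3cr1 were at 24.2 CPM per kb each. In dKO, Ackr1 was next after Ccl11 at 102 CPM per kb. The spread of Ccl12 and Ccl2 between libraries was wider than the gaps between these genes, and their order among the 4 that followed Ccl11 was not distinguishable.

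**Figure D2:**
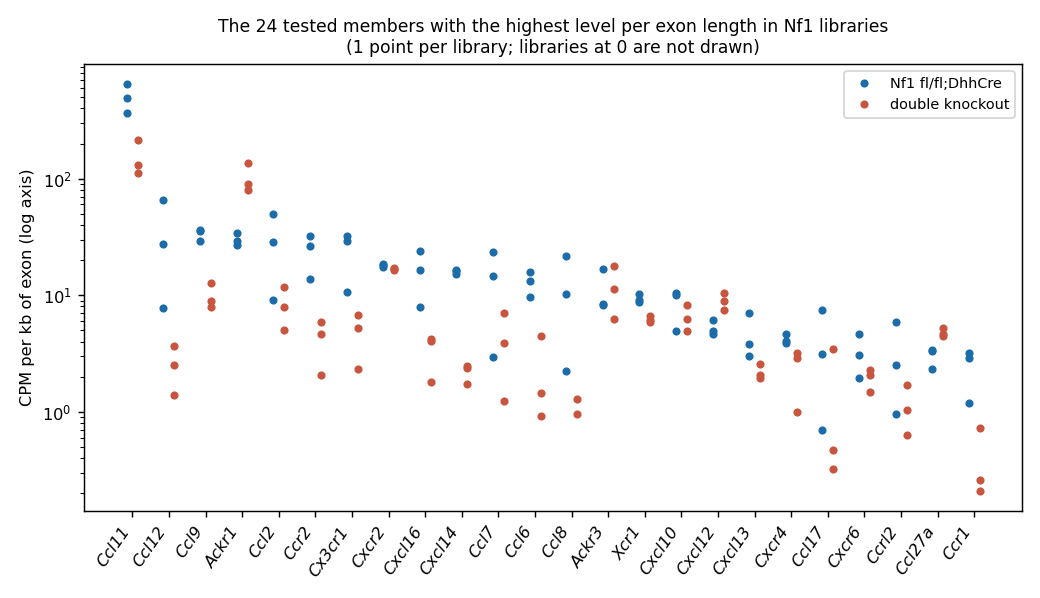
CPM per kb of exon (log axis) of the 24 tested genes with the highest mean level in Nf1fl/fl;DhhCre libraries (blue), with dKO libraries in red and 1 point for each library above 0. Ccl11 stands above the rest in Nf1fl/fl;DhhCre, at a mean of 501 CPM per kb, and Ackr1 is the clearest gene with higher dKO points, at 102 against 30.2 CPM per kb.

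The RNA of leukocyte markers differed between the libraries in the same direction and is given here beside the ligands and receptors. All 8 leukocyte markers (Ptprc, Laptm5, Cd53, Coro1a, Itgb2, Cd52, Tyrobp and Fcer1g, of which Tyrobp and Fcer1g are genes of myeloid and NK cells) lay lower in every dKO library, 7 of them were called lower, and their sum was 475 to 1358 CPM in Nf1fl/fl;DhhCre and 65.0 to 145 CPM in dKO. Of 9 macrophage markers 8 were called lower (526 to 1131 against 97.4 to 237 CPM in sum), and of 4 dendritic cell markers 1 was (76.9 to 161 against 36.5 to 47.3 CPM), a list that holds Xcr1, itself among the genes examined. Of 6 tested T and NK cell markers 1 was called lower (14.4 to 35.6 against 2.97 to 4.61 CPM over the list), whereas limma-voom called none of the neutrophil (50.5 to 105 against 28.9 to 66.8 CPM), B cell (2.77 to 12.4 against 3.83 to 5.26 CPM) and mast cell (41.7 to 85.9 against 58.2 to 83.0 CPM) markers. The neutrophil markers Csf3r (log2 fold change -0.72, limma-voom adjusted p = 0.0377) and Retnlg (-2.53, adjusted p = 0.0760) were lower in every dKO library. S100a8 and S100a9 had log2 fold changes of 1.33 and 1.92 with overlap. Kit was higher in every dKO library (0.67, limma-voom adjusted p = 0.0956), and the other 4 mast cell markers were negative with overlap. Of 4 fibroblast markers (Pdgfra, Dcn, Lum and Col1a1) 3 were called lower (6223 to 7124 against 2275 to 3584 CPM), all 7 sensory neuron markers were called higher (133 to 380 against 719 to 1580 CPM), and of 6 Schwann cell markers 3 were called higher (1811 to 2270 against 3312 to 4054 CPM). No marker of these lists was at 0 in all libraries, and the part of cell content in the results below was not tested.

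Among the inflammatory CC ligands grouped here as acting mainly on receptors other than CCR2, 3 of the 4 tested were called lower. Among all genes tested 5.36% were. Ccl11, eotaxin-1, attracts eosinophils through CCR3 and lies at chr11:82057823-82062955 (GRCm38, plus strand). It was at 529, 396 and 700.3 CPM in Nf1fl/fl;DhhCre and at 230.1, 121 and 141 CPM in dKO. Each dKO library lay below the lowest Nf1fl/fl;DhhCre library, and the log2 fold change was -1.74 (SE 0.29, limma-voom adjusted p = 0.0127). Without Nf1fl/fl;DhhCre replicate 1 it was -1.71 and no longer called.

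Ccl9, a CCR1 ligand of the mouse, lies at chr11:83572919-83578636 on the minus strand. Its level was 108, 110.1 and 88.6 CPM in Nf1fl/fl;DhhCre and 38.8, 23.9 and 27.1 CPM in dKO, with a wide gap between the groups. The log2 fold change was -1.80 (SE 0.20, limma-voom adjusted p = 0.00764), and it stayed between -1.95 and -1.66 with any 1 library left out. Its neighbor Ccl6 (chr11:83587882-83593087, minus strand), which also acts on CCR1, was at 28.2, 17.2 and 23.5 CPM against 8.05, 1.64 and 2.57 CPM. All dKO values of Ccl6 were below 17.2 CPM, and dKO replicate 1 was the highest of them. The log2 fold change of Ccl6 was -2.78 (SE 0.51, limma-voom adjusted p = 0.0154), and without Nf1fl/fl;DhhCre replicate 1 it was -2.59 and no longer called.

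Ccl3, MIP-1 alpha, was at 1.32, 0.477 and 3.59 CPM in Nf1fl/fl;DhhCre and at 1.20, 0 and 0 CPM in dKO, so the groups overlapped (log2 fold change -3.48, limma-voom adjusted p = 0.162). Ccl4, Ccl5 and Ccl24 had too few reads to be tested. Ccl4 had 5, 1 and 13 counts in the Nf1fl/fl;DhhCre libraries and none in the dKO libraries. Ccl5, RANTES, was at 0.416, 1.19 and 7.25 CPM against 0.319, 0 and 0.462 CPM, with overlap, and most of its reads came from Nf1fl/fl;DhhCre replicate 3. A library's own floor of 3 counts was 0.179 to 0.247 CPM.

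None of the 4 genes grouped here as ligands of CCR2 was called by limma-voom with Benjamini-Hochberg adjustment. None had a limma-voom unadjusted p under 0.05, whereas edgeR called Ccl8 and Ccl12 lower and DESeq2 called these and Ccl2. Which receptor each ligand binds in the mouse was not examined. Ccl2, MCP-1, the main attractant of monocytes, was at 32.3, 10.2 and 56.6 CPM in Nf1fl/fl;DhhCre and at 13.4, 5.67 and 9.04 CPM in dKO. Its groups overlapped because Nf1fl/fl;DhhCre replicate 2 was below dKO replicate 1. The log2 fold change was -1.56 (95% confidence interval -3.28 to 0.16, limma-voom adjusted p = 0.176), and without Nf1fl/fl;DhhCre replicate 2 it was -2.22 and called lower.

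Ccl12, the mouse MCP-5, was at 14.8, 4.17 and 35.2 CPM against 1.35, 0.740 and 1.98 CPM, with no overlap, and its log2 fold change was -3.25 (95% confidence interval -6.54 to 0.04, limma-voom adjusted p = 0.146). Ccl8 was at 5.20, 1.13 and 11.2 CPM against 0, 0.493 and 0.660 CPM, also with no overlap (log2 fold change -3.96, limma-voom adjusted p = 0.187). Ccl7 was at 11.7, 2.38 and 18.7 CPM against 3.11, 0.987 and 5.61 CPM and overlapped (log2 fold change -1.50, limma-voom adjusted p = 0.354). In all 4 the Nf1fl/fl;DhhCre libraries kept one order of levels, with replicate 3 the highest and replicate 2 the lowest.

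The remaining CC ligands, many of them made in lymphoid organs, skin and gut, showed no call. Of 13, 6 were tested, and limma-voom called none, with 1 at an unadjusted p under 0.05 and none called by edgeR or DESeq2. That gene was Ccl27a, a skin chemokine that binds CCR10, at 7.91, 8.04 and 5.58 CPM in Nf1fl/fl;DhhCre and 12.4, 10.5 and 11.1 CPM in dKO. All dKO libraries of Ccl27a lay higher (log2 fold change 0.67, limma-voom adjusted p = 0.0802), its exons overlap those of Il11ra1 by 8 bases, and near-identical copies may share its reads. Ccl19, a CCR7 ligand of lymphoid tissue, was at 1.25 to 1.37 CPM against 1.56 to 2.07 CPM. The log2 fold changes of Ccl17, Ccl22, Ccl25 and Ccl28 were -1.38, -1.01, 0.61 and -0.04, each with overlapping groups. Ccl1 and Ccl26 were not tested, and Ccl20, Ccl21a, Ccl21b, Ccl21c and Ccl27b had no read in any library. Copies of the Ccl21 and Ccl27 genes are nearly identical, and how reads with several alignments were counted is not stated, so that their counts of 0 are uncertain.

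Among the ligands of CXCR2, which attract neutrophils, Cxcl5 was called lower. Cxcl5 (chr5:90759360-90761624, plus strand) was at 4.23, 4.35 and 3.40 CPM in Nf1fl/fl;DhhCre and at 1.51, 1.4 and 1.65 CPM in dKO. The groups did not overlap and the libraries of each lay close together (log2 fold change -1.36, SE 0.35, limma-voom adjusted p = 0.0371). The call was lost when any 1 of the 6 libraries was left out, with log2 fold changes of -1.43 to -1.24.

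Cxcl1, the keratinocyte chemokine KC, was at 1.53, 1.13 and 3.46 CPM against 1.04, 0.164 and 0.330 CPM, with no overlap (log2 fold change -2.10, limma-voom adjusted p = 0.125). Cxcl2 and Cxcl15 were under 0.3 CPM in every library and were not tested, and Cxcl3 had no read. The CXCR3 ligands, which interferon induces, did not change by the test: limma-voom called none of the 3, none had an unadjusted p under 0.05, and edgeR and DESeq2 called none. Cxcl10, at 8.47 CPM per kb of exon in Nf1fl/fl;DhhCre, had the highest level of them per length. It was at 23.7, 11.1 and 22.5 CPM against 18.6, 11.1 and 14.2 CPM, with overlapping groups (log2 fold change -0.32, 95% confidence interval -1.14 to 0.51). Cxcl9 had a log2 fold change of -1.05 and Cxcl11 of 0.46, and both overlapped.

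Cxcl14, a chemokine of epithelia and fibroblasts, had the lowest adjusted p among the ligands. It lies at chr13:56288643-56296551 on the minus strand. Its level was 29.8, 27.9 and 29.6 CPM in Nf1fl/fl;DhhCre and 3.19, 4.36 and 4.49 CPM in dKO. Each group was tight and the gap between them was wide, by a factor of 7.26 in their means. This gave a log2 fold change of -2.85 (SE 0.23, limma-voom adjusted p = 0.00596), and stayed between -2.95 and -2.67 with any 1 library left out. The fibroblast markers Pdgfra, Dcn, Lum and Col1a1 had a median log2 fold change of -1.22.

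The bases before the transcription start of the ligands that kept their calls are shown because the deleted genes encode transcription factors that bind DNA. They were read from RefSeq promoters (GRCm38.p6), which matched 47 of the 63 genes, 7 of the 11 called lower among them. A window of 250 bases before to 50 bases after the start was searched on both strands for TGTGGT, the core of RUNX sites, for GAAANNGAA, found in interferon response elements, and for GGGNNTTTC, found in kappa B sites, motifs that do not contain one another. In the sequences of the 250 bases before the start, capitals mark matches in either orientation.
Ccl9, chr11:83578637-83578886, minus strand: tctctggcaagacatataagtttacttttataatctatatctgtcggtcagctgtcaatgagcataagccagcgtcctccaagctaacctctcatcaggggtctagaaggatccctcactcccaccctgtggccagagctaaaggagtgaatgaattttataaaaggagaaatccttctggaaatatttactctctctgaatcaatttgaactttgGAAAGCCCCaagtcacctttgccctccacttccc
Cxcl14, chr13:56296552-56296801, minus strand: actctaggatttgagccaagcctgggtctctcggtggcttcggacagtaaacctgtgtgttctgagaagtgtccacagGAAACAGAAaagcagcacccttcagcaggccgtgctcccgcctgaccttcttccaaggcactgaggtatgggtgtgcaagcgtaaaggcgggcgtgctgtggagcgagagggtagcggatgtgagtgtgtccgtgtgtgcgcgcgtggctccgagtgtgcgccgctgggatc
Ccl9 held the kappa B letters in the reverse orientation 34 bases before the start, and Cxcl14 held the interferon letters 172 bases before the start. Neither window of 250 bases before to 50 after the start held TGTGGT, which says only that these letters are not in it. The paper gives its putative RUNX sites in Pmp22 as the shorter TGTGG, which was not searched for here. Both sequences shown hold TGTGG, and its share over all promoters was not counted.

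Of the genes called lower, Ccr1 and Cx3cr1 held TGTGGT, 58 and 54 bases before the start in the reverse orientation, and Ccr3 held the kappa B letters 178 bases before it. The RefSeq start used for Cx3cr1 is not that of the GENCODE gene, which begins at chr9:120069879 on the minus strand. The site shown for Cx3cr1 therefore lies inside the GENCODE gene. These sites are shown in capitals with the bases on either side.
Ccr1, chr9:123968733-123968762, minus strand: ggctcctcactgACCACAagaactctatga
Cx3cr1, chr9:120068333-120068362, minus strand: taaagatagggtACCACAcaggaaaccaga
Ccr3, chr9:124021781-124021813, plus strand: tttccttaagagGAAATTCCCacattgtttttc
TGTGGT was found in 13 of the 47 promoters (27.7%) and in 18.9% of 27025 promoters of all genes. The kappa B letters were in 13 (27.7%, against 5.06% of all), and the interferon letters in 8 (17%, against 9.76%). Among the 7 promoters of genes called lower each motif was in 2, with Cxcl14 and Ccr2 holding the interferon letters. A match describes the letters and is not evidence of binding.

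Cxcl16, a membrane-bound chemokine of macrophages and dendritic cells that binds CXCR6, was also called lower. It lies at chr11:70453983-70459984 on the minus strand and was at 49.2, 24.1 and 72.1 CPM in Nf1fl/fl;DhhCre and at 12.7, 5.43 and 12.1 CPM in dKO. The lowest Nf1fl/fl;DhhCre library was still above every dKO library (log2 fold change -2.19, SE 0.54, limma-voom adjusted p = 0.0326). Its exons overlap those of Zmynd15 on the opposite strand by 552 bases, Zmynd15 was itself called lower (log2 fold change -2.06), and without the strand of the reads these cannot be told apart there. Cxcl16 was called in only 1 of the 6 fits that left out a library, that without Nf1fl/fl;DhhCre replicate 2, and its log2 fold change over them was -2.58 to -1.78.

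Cxcl12, which retains hematopoietic and stromal cells through CXCR4, passed the test with all libraries, with a higher level in dKO by less than 2-fold. It was at 38.2, 50.2 and 40.7 CPM against 73.0, 85.7 and 60.9 CPM, and the groups did not overlap (log2 fold change 0.75, SE 0.18, limma-voom adjusted p = 0.0301). With 1 library left out the limma-voom adjusted p was 0.122 and 0.103 without Nf1fl/fl;DhhCre replicates 1 and 3, 0.0809 and 0.0865 without dKO replicates 1 and 2, and under 0.05 without either of the other two libraries. Cxcl13, the B cell attractant, was at 3.47, 4.41 and 8.02 CPM against 2.95, 2.22 and 2.38 CPM, also without overlap, and had a log2 fold change of -0.99 (limma-voom adjusted p = 0.148). Cxcl17 was at 0.576 to 1.83 CPM over all libraries with overlap. Cx3cl1, fractalkine, the ligand of CX3CR1 that neurons and endothelium carry on their surface, was at 6.80, 6.43 and 7.95 CPM against 2.71, 5.84 and 2.38 CPM. Each dKO library of Cx3cl1 lay below Nf1fl/fl;DhhCre, replicate 2 by little (log2 fold change -1.09, limma-voom adjusted p = 0.0753). Xcl1 was not tested.

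**Figure D3:**
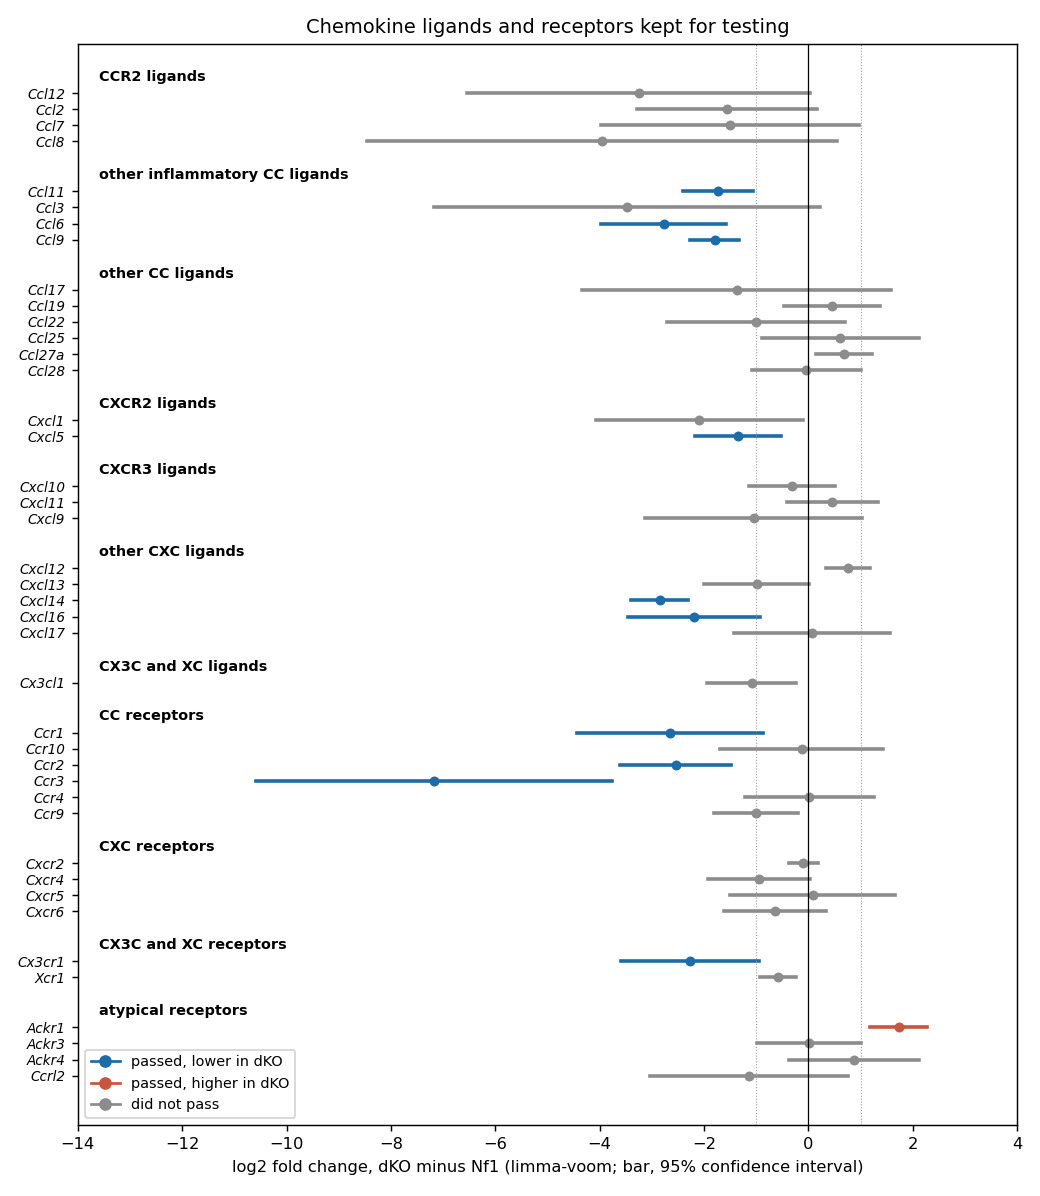
Log2 fold changes of dKO against Nf1fl/fl;DhhCre from limma-voom for 41 tested genes, grouped by role, with 95% confidence intervals (bars). Blue marks 10 genes called lower, red the 1 called higher, gray those not called, and dotted lines mark a 2-fold change. Ccr3, at 0 in all dKO libraries, has the lowest fitted value.

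Among the CC receptors, Ccr1, Ccr2 and Ccr3 were called lower. Ccr2, the receptor that brings inflammatory monocytes out of the blood, lies at chr9:124101950-124113557 on the plus strand. It was at 179.9, 93.9 and 217 CPM in Nf1fl/fl;DhhCre and at 31.5, 14.0 and 39.7 CPM in dKO. Even the lowest Nf1fl/fl;DhhCre library was above the highest dKO library, and the log2 fold change was -2.54 (SE 0.45, limma-voom adjusted p = 0.0145). Without Nf1fl/fl;DhhCre replicate 1 it was -2.40 and no longer called.

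Ccr1, a receptor of monocytes and neutrophils (chr9:123962124-123968692, minus strand), was at 8.11, 3.40 and 9.11 CPM against 2.07, 0.740 and 0.594 CPM. No dKO library of Ccr1 reached the Nf1fl/fl;DhhCre range (log2 fold change -2.66, SE 0.76, limma-voom adjusted p = 0.0492), and the call remained in only 1 of the 6 fits that left out a library, that without Nf1fl/fl;DhhCre replicate 2, with log2 fold changes of -3.14 to -2.27.

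Ccr3, the eotaxin receptor of eosinophils (chr9:124021972-124031689, plus strand), was at 10.3, 2.44 and 6.93 CPM in Nf1fl/fl;DhhCre and had no read in any dKO library. Summed over libraries these were 297 counts against 0, at least 84.3-fold lower against a floor of 3 counts over the group. The limma-voom adjusted p was 0.0196, and Ccr3 was called in only 1 of the 6 fits that left out a library, that without Nf1fl/fl;DhhCre replicate 2. Its neighbor Ccr1l1 had 45 counts against 0, at least 12.8-fold lower by the same floor. It did not pass the filter on low counts, and was called lower in the fit that kept every gene with a count (limma-voom adjusted p = 0.0118). Ccl11, a ligand of CCR3, was thus still at 121 CPM or more in libraries in which its receptor was not detected at this depth.

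Limma-voom called none of Ccr4, Ccr9 and Ccr10, of which Ccr9 had an unadjusted p under 0.05. Ccr9, which homes T cells to the gut, was at 8.11, 8.88 and 15.7 CPM against 4.62, 6.00 and 4.95 CPM without overlap (log2 fold change -1.01, limma-voom adjusted p = 0.0790), and DESeq2 called it lower. Its exons overlap those of Slc6a20a by 22 bases. Ccr4 and Ccr10 overlapped between groups, with log2 fold changes of 0.01 and -0.13. Ccr6, Ccr7 and Ccr8 were not tested. Ccr7, the receptor of migrating dendritic cells and naive T cells, was at 0.277, 2.38 and 6.03 CPM against 0.0797, 0.164 and 0 CPM, and Ccr6 at 0.416, 0.834 and 4.04 CPM against 0.159, 0.247 and 0.264 CPM. Both were lower in every dKO library and highest in Nf1fl/fl;DhhCre replicate 3.

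Cx3cr1, the fractalkine receptor of resident macrophages, lies at chr9:119901616-120069879 on the minus strand. It was at 132, 48.0 and 146 CPM against 23.7, 10.5 and 30.4 CPM, and the lowest Nf1fl/fl;DhhCre library was above every dKO library. The log2 fold change was -2.27 (SE 0.56, limma-voom adjusted p = 0.0333). The call was kept in 1 of the 6 fits that left out a library, that without Nf1fl/fl;DhhCre replicate 2, and the log2 fold change over them was -2.74 to -1.84. Xcr1, the receptor of cross-presenting dendritic cells, was at 40.1, 38.8 and 45.6 CPM against 27.1, 26.1 and 29.6 CPM. Its groups did not overlap, and it had a limma-voom adjusted p of 0.0334 but a change under 2-fold (log2 fold change -0.58, SE 0.15). With 1 library left out the limma-voom adjusted p of Xcr1 was under 0.05 only without Nf1fl/fl;DhhCre replicate 2 (0.0483), and 0.0552 to 0.103 without any other.

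No CXC receptor was called by limma-voom with Benjamini-Hochberg adjustment among the 4 tested, with none at an unadjusted p under 0.05 and none called by edgeR or DESeq2. Cxcr2, the receptor of neutrophils for CXCL1 and CXCL5, was at 56.7, 53.6 and 54.9 CPM in Nf1fl/fl;DhhCre and at 50.8, 50.4 and 52.5 CPM in dKO. The dKO values were all lower, by a small margin (log2 fold change -0.10, 95% confidence interval -0.38 to 0.18, limma-voom adjusted p = 0.588). Cxcr4, the CXCL12 receptor, was at 7.01, 8.40 and 7.31 CPM against 5.26, 1.81 and 5.74 CPM without overlap (log2 fold change -0.95, limma-voom adjusted p = 0.151). Cxcr6, the CXCL16 receptor of T and NK cells, was at 5.96, 3.75 and 8.98 CPM against 4.38, 2.88 and 3.96 CPM and overlapped (log2 fold change -0.64, limma-voom adjusted p = 0.312). Cxcr5 overlapped with a log2 fold change of 0.08. Cxcr1 and Cxcr3 did not pass the filter on low counts. Cxcr3, the receptor of activated T cells for CXCL9 and CXCL10, was at 1.18, 0.655 and 2.12 CPM against 0.159, 0 and 0.198 CPM, lower in each dKO library. In the fit that kept every gene with a count, Cxcr3 was called lower (log2 fold change -3.27, limma-voom adjusted p = 0.0423) and Cxcr1 was not.

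To compare receptors with the leukocyte marker RNA of the same library, each receptor's log2 CPM was set against the mean log2 CPM of the 8 leukocyte markers. A difference of 0 between genotypes means that the receptor differed by as much as these markers. For Ccr2 the values were 1.34, 1.09 and 0.88 in Nf1fl/fl;DhhCre and 1.30, 1.20 and 1.46 in dKO, which overlapped, and the difference in means was 0.21 (exact permutation p = 0.3, two-sided). For Cx3cr1 the difference was 0.47 (exact permutation p = 0.3) and for Ccr1 it was 0.13 (exact permutation p = 0.9), both with overlap. These values depended on the reference and on which libraries were used. Against Ptprc alone the differences were 0.62 for Ccr2 and 0.88 for Cx3cr1, with no overlap (exact permutation p = 0.1 each), and 0.54 for Ccr1 (exact permutation p = 0.4). Without Nf1fl/fl;DhhCre replicate 1 they were 0.33 for Ccr2 and 0.70 for Cx3cr1, again with no overlap (exact permutation p = 0.1 each), and 0.32 for Ccr1. Without Nf1fl/fl;DhhCre replicate 3 the difference of Ccr2 was 0.10, and without replicate 2 that of Cx3cr1 was 0.31, both with overlap. For Ccr1 the sign turned when dKO replicate 1 (-0.25) or 2 (-0.07) was left out, and without dKO replicate 3 the difference was 0.71.

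Cxcr2, Cxcr4 and Cxcr6 stood higher relative to these markers in every dKO library, with differences of 2.68, 1.80 and 2.12 (exact permutation p = 0.1 each). With 3 libraries in each group 0.1 is the smallest p that this test can give, and over the 7 receptors compared, 6 of them given here, the adjusted p of these was 0.175.

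**Figure D4:**
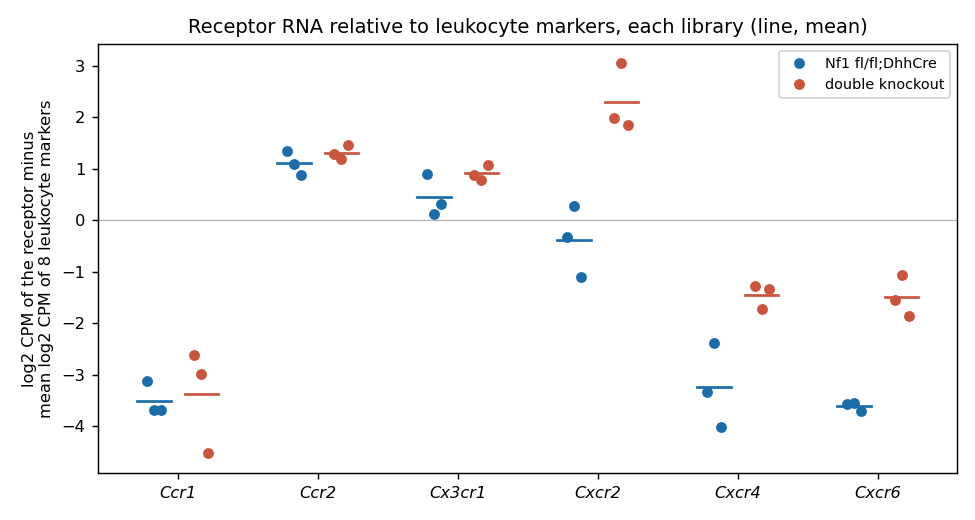
Log2 CPM of 6 receptors minus the mean log2 CPM of 8 leukocyte markers in each library (points; line, mean), with Nf1fl/fl;DhhCre in blue and dKO in red. Ccr1, Ccr2 and Cx3cr1 overlap between genotypes, and Cxcr2, Cxcr4 and Cxcr6 lie higher in dKO.

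Among the atypical receptors, 4 of 5 were tested and Ackr1 was called higher. Ackr1, the Duffy antigen receptor that venous endothelium and erythroid cells carry, lies at chr1:173331886-173333750 on the minus strand. It was at 38.0, 48.4 and 40.9 CPM in Nf1fl/fl;DhhCre and at 126, 112 and 192 CPM in dKO. All dKO libraries lay above the Nf1fl/fl;DhhCre libraries, with a mean 3.38-fold difference (log2 fold change 1.73, SE 0.23, limma-voom adjusted p = 0.00931), and the log2 fold change stayed between 1.49 and 1.89 with any 1 library left out. Its exons share 361 bases with those of Cadm3, an adhesion gene of neurons and glia on the same strand. Cadm3 was at 291, 307 and 291 CPM against 730.5, 704 and 1091 CPM and was itself called higher (log2 fold change 1.48), so that reads in the shared bases cannot be assigned to either gene. Of 4 endothelial markers limma-voom called none (116 to 155 CPM in sum against 93.7 to 176 CPM). Cldn5 was higher in each dKO library (means of 0.721 CPM in Nf1fl/fl;DhhCre and 2.08 CPM in dKO, limma-voom unadjusted p = 0.0185, adjusted p = 0.0749), Tek had a log2 fold change of 0.57 with overlap (limma-voom unadjusted p = 0.0445, adjusted p = 0.131), and Pecam1 and Cdh5 had log2 fold changes of -0.35 and 0.02 with overlap.

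Ackr3, which takes up CXCL12, was at 28.2, 55.9 and 27.6 CPM against 59.2, 37.7 and 21.0 CPM. Its groups overlapped fully, and its log2 fold change was 0.01 (95% confidence interval -0.99 to 1.0, limma-voom adjusted p = 0.994), with a sign that turned with the scaling. Ackr4 had a log2 fold change of 0.87 (limma-voom adjusted p = 0.287) and shares 479 exon bases with Acad11, and Ccrl2, a receptor for chemerin, had one of -1.14 (limma-voom adjusted p = 0.359), both with overlapping groups. Ackr2 was not tested.

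By position, the ligand genes lie mainly in clusters. Of 11 Ccl genes on chromosome 11, 8 were tested, all with a negative log2 fold change, and 3 were called lower, beside 7658 of 15652 genes negative and 5.36% called lower among all genes. Of 9 Cxcl genes on chromosome 5, 6 were tested and only Cxcl5 was called.

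The other genes of the pathway, from relatives of the chemokines to signaling downstream of their receptors, were taken from a list of 40 symbols. That list was drawn up with earlier results of these data known. Of these 38 were counted and tested, 14 were called lower by limma-voom with Benjamini-Hochberg adjustment and 1 was called higher, beside 5.36% and 8.03% of all genes, with a median log2 fold change of -0.76 beside 0.02 over all genes. Genes called lower that work downstream of chemokine receptors included the phospholipase Plcb2 (log2 fold change -2.81), the PI3 kinase subunits Pik3cg (-2.45) and Pik3r5 (-1.70), the Rac activators Vav1 (-2.42), Dock2 (-2.08) and Prex1 (-1.22), the GTPase Rac2 (-1.84), Was (-1.28) and the kinase Ptk2b (-1.20). The 14 also hold the G protein signaling regulator Rgs1 (-3.98), at 2.43, 1.85 and 4.87 CPM against 0.319, 0 and 0.330 CPM. Rgs1 passed the filter on low counts in the Nf1fl/fl;DhhCre libraries only, so that it had to differ in order to be tested. Arrb2, the arrestin that turns receptors off, had a log2 fold change of -1.20 and Dpp4, a protease that trims chemokines, of -2.10, and both were called lower. Cd74, a receptor of MIF and the invariant chain of MHC class II, was at a mean of 3415 CPM against 395 CPM (log2 fold change -3.06), and Cmklr1, the chemerin receptor, had a log2 fold change of -1.42. The gene called higher was Plcb3 (log2 fold change 1.23). The G protein subunit Gng2 was higher in every dKO library by less than 2-fold (0.90, limma-voom adjusted p = 0.0219). In 5 of the 38, among them Gnb1, Tiam1 and Mif, all dKO libraries lay above all Nf1fl/fl;DhhCre libraries, as in 21.8% of all genes. In 20 of the 38 they lay below, as in 20.5% of all genes. The platelet chemokines Pf4 and Ppbp, which bear no Cxcl symbol, had log2 fold changes of -0.39 and 1.44 and were not called.

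The call count of the pathway list also depended on single libraries. Without Nf1fl/fl;DhhCre replicates 1, 2 and 3 it was 1, 14 and 3 lower, beside 181, 1028 and 498 of all genes, and without dKO replicates 1, 2 and 3 it was 7, 2 and 6, beside 577, 326 and 473 of all genes.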

How the data were processed

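RNA from DRG/tumors was amplified with the Ovation RNA-Seq System, Nextera XT libraries were sequenced as paired ends, and reads were aligned to mm10 with TopHat, per the paper's methods and the labels. The authors deposited the count of reads assigned to each gene by featureCounts, not normalized. Annotation, strand setting and reads with several alignments are not given in the sources used here.

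Counts were analysed in R 4.3.3. Genes kept by filterByExpr of edgeR 4.0.16 (minimum count 10, minimum total 15) were scaled by TMM (factors 0.950 to 1.04) and fitted with limma 3.58.1 (limma-voom, genotype as the only term, Benjamini-Hochberg adjustment over 15652 genes). Calls needed an adjusted p under 0.05 and a change over 2-fold. Repeat fits used DESeq2 1.42.0, the quasi-likelihood test of edgeR, size factors of DESeq2, library size only, a CPM filter, all genes with a count, sample quality weights, or 1 library fewer. The fits were tested on simulated data. No library was a copy of another: chi-square per degree of freedom was 19.4 to 117 within a genotype.

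The genes, lists and role groups were chosen with earlier results of these data known. Every called gene, and every tested gene whose average log2 CPM reached 3, was given in each library, and the rest by value, range or name. The values of 1 called gene are not reported here, although it enters the counts and fits. Ccl26 was put with the other CC ligands afterwards. Receptors were set against leukocyte markers with a prior count of 0.5. Replicate numbers follow the order of the samples, and in each genotype the titles and the deposited data give different numbers to 2 of the libraries. Gene positions came from GENCODE M21 and promoters from RefSeq, and protein sequences were not analysed here. Floors of 3 counts cover counting error only. Figures were drawn with matplotlib 3.10.9.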

Additional observations from a re-analysis of the deposited data

How the results depend on the processing

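With all libraries kept, the 12 called genes kept their calls in all 7 settings that changed the test, the scaling, the filter or the weights. Leaving out 1 library at a time, the number of genes of the family called lower ranged from 2 to 16, that of all genes called lower from 181 to 1028 and of all genes called higher from 181 to 1304, and for the other pathway genes from 1 to 14 lower and from 0 to 2 higher. Leaving out both libraries with muscle RNA, a setting chosen after seeing the data, gave 13 of the family lower (Cxcl5 lost, log2 fold change -1.22), 11 pathway genes lower and 2 higher, beside 719 of all genes lower (4.56%) and 1033 higher. The log2 fold change of Ackr3 was -0.00566 with DESeq2 size factors, -0.0766 with library size only, -0.00901 with every gene kept, and -0.33 to 0.42 with 1 library left out. Ccr1 relative to leukocyte markers ranged from -0.25 to 0.71 with 1 library left out. The cause of these changes was not tested. Genes under the floor of 3 counts in a library cannot be compared at this depth. No paired analysis was possible because the labels give no replicate numbers that the genotypes share.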
